A study of Mus musculus with 2 samples.

Results

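The type I interferon response was described in single cells of the mouse liver through 9 genes: Irf7, Isg15, Usp18, Ifit1, Ifit2, Ifit3, Oasl2, Rsad2 and Bst2. They were chosen by name, with earlier results of these data known, and are 9 of the 31053 genes in the deposited count matrix. Type I interferons are secreted proteins of antiviral defence that bind a receptor made of IFNAR1 and IFNAR2. The receptor activates the kinases JAK1 and TYK2, whose signal reaches the nucleus through transcription factors, STAT2 and IRF9 among them, that bind interferon-stimulated response elements in the promoters of the response genes. In the liver, resident macrophages (Kupffer cells), the endothelial cells that line the sinusoids and circulating leukocytes are in contact with blood from the gut, which carries microbial products that can start such a response.

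Cells were freed from the tissue with collagenase IV, sorted and captured with the 10x Chromium droplet system, in which every captured RNA gets a barcode for its cell and a tag of its own, the unique molecular identifier (UMI). The groups were liver Rcrin conditional knockout mice, with the genotype label Rcrin KO, and Rcrin flox mice, labelled WT. Both were of the strain RedMUC298trTg and 8 weeks old, and each group had 1 sample. The Cre driver, the sort markers and the number of mice are not given in the sources used here. The barcodes, the gene list and the matrix of the Rcrin KO sample were identical to those of the WT sample, with all 11192 barcodes shared. The pair was therefore counted as 1 sample, cells carry no genotype and Rcrin KO was not compared with WT. With 1 matrix under both labels, the level of the targeted gene cannot check them. A single sample gives neither replicate error nor a test, so p-values are not printed. All intervals are exact 95% intervals and cover counting error only, and for levels and ratios each UMI was counted as independent, which leaves out the spread between cells.

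Of the 11192 barcodes, 10366 were kept, with 64321006 UMI and a median of 4343.5 UMI per cell (508 to 93990). Cells were placed in classes by the number of marker genes detected, and none of the 9 genes was a marker. Classes were rebuilt from these markers and are neutrophil-like, T cell-like and so on, called neutrophils, T cells and so on for short. Among the 10 genes with the highest fold in a class, 5 were its own markers in neutrophils, 5 in T cells, 8 in Kupffer cells and 2 in LSEC, and 0 were markers of another class. The same markers had placed the cells, so this outcome was largely set by that placement and is no independent check of the classes. The class sizes were 936 neutrophils, 948 liver sinusoidal endothelial cells (LSEC), 536 Kupffer cells, 250 classical and 280 nonclassical monocytes, 235 plasmacytoid dendritic cells (pDC), 40 type 1 conventional dendritic cells (cDC1), 31 basophils, 2058 T cells, 783 NK cells and ILC1, 58 plasma cells and 2985 B cells. LSEC are not immune cells, although the label of the samples is immune cells. A further 786 cells carried markers of 2 classes, 425 carried too few markers and 15 type 2 conventional dendritic cells were too few to rank. Median depth differed between classes, with 2582.5 UMI in neutrophils, 3252 in B cells, 5100 in T cells, 7386 in LSEC and 13216 in Kupffer cells.

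The 9 genes lie at 7 loci of the mouse genome (GRCm38, the assembly of mm10; gene annotation GENCODE vM21). Irf7 lies at chr7:141262706-141266481 on the minus strand and overlaps Phrf1 on the other strand. Isg15 lies at chr4:156199424-156200818 on the minus strand. Usp18 lies at chr6:121245906-121270917 on the plus strand and overlaps Gm44148 on the other strand. The sources used here do not give the strand setting of the counting, so it is not known here whether reads of these overlapping pairs were told apart. Oasl2 lies at chr5:114896936-114912234 on the plus strand, Rsad2 at chr12:26442746-26456452 on the minus strand and Bst2 at chr8:71534255-71537456 on the minus strand. Ifit2 (chr19:34550694-34576419), Ifit3 (chr19:34583531-34588731) and Ifit1 (chr19:34640871-34650009), all on the plus strand, belong to a cluster of 6 Ifit genes that spans 99316 bases, with Ifit1bl1, Ifit3b and Ifit1bl2 between them. Transcripts of Ifit3 and Ifit3b were identical at 1663 of 1700 aligned bases (97.8%), so counting may have split reads between them and both genes are uncertain in that respect. Among the pairs that include Ifit1, Ifit2 or Ifit3, the others were 65.4 to 76.7% identical over their aligned parts.

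Promoter sequences were searched for the core of the interferon-stimulated response element, written GAAANNGAAA, on both strands of a window from 250 bases before to 50 bases after the annotated start (RefSeq, GRCm38.p6). A window was given for 8 of the 9 genes, all but Usp18. The motif was present in 5 of these 8 genes (62.5%), in 20 of 40 other interferon-stimulated genes (50%) and in 1079 of all 27025 genes with a window (3.99%). At least 2 matches were found in 4 of the 8 genes (50%) and in 72 of all 27025 (0.266%). The 5 windows that hold the motif are shown because their matches differ in number, strand and spacing. They are Isg15 (chr4:156200769-156201068, minus strand), Ifit1 (chr19:34640639-34640938, plus strand), Ifit3 (chr19:34583279-34583578, plus strand), Rsad2 (chr12:26456403-26456702, minus strand) and Bst2 (chr8:71537423-71537722, minus strand). Each is printed along the strand of its gene, with capitals for each match of GAAANNGAAA or of its complement TTTCNNTTTC.
Isg15: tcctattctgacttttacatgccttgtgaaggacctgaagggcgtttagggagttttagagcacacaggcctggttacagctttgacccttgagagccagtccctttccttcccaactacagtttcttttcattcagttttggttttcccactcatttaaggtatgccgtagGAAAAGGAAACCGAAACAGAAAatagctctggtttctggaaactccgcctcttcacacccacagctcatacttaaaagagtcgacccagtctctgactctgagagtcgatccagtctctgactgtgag
Ifit1: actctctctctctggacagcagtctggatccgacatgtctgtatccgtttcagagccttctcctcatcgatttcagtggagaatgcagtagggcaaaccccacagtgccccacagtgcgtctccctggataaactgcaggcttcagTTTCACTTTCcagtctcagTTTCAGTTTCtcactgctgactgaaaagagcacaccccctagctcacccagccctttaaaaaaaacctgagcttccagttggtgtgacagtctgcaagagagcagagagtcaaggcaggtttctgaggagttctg
Ifit3: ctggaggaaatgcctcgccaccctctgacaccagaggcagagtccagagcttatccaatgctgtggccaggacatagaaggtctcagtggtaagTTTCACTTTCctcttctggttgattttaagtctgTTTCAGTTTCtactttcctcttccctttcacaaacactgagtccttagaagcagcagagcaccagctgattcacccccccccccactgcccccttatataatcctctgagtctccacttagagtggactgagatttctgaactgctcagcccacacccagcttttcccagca
Rsad2: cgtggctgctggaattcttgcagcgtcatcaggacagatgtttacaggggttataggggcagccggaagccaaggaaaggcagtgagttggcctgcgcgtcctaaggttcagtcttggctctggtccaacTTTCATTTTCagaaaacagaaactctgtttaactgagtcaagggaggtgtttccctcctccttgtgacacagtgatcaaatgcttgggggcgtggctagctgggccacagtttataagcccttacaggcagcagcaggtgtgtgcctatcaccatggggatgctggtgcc
Bst2: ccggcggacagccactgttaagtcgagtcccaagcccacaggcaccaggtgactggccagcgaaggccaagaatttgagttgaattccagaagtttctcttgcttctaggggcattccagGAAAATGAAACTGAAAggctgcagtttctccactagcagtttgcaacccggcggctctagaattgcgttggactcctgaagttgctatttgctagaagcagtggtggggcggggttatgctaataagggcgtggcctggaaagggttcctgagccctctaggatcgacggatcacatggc
Isg15 held 3 matches on its own strand that overlap and begin 78, 72 and 66 bases before the start, and Bst2 held 2 overlapping matches at 130 and 124 bases before it. The matches of Ifit1 (104 and 85 bases before the start), Ifit3 (156 and 122 bases) and Rsad2 (120 bases) lie on the other strand. No match was present in the windows of Irf7, Oasl2 and Ifit2. For those genes this says only that the letters are not in these windows. A core of the interferon gamma-activated site, written TTCNNNGAA, was present in 2 of the 8 genes (Bst2 and Ifit2), against 9.55% of all genes. A match of letters is a description and not a binding site.

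**Figure D1:**
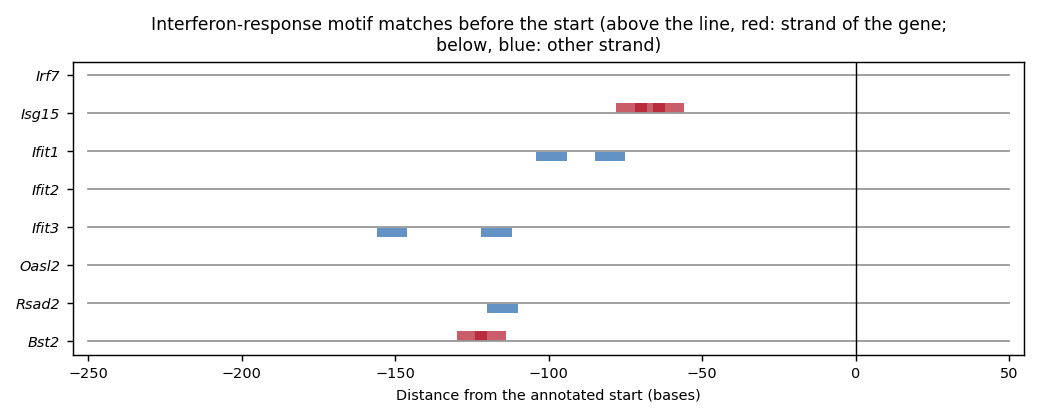
Positions of matches to the interferon-response motif GAAANNGAAA in the windows of 8 genes, in bases from the annotated start (vertical line at 0). Bars above a line are matches on the strand of the gene and bars below it are matches on the other strand, and darker stretches are overlaps. All matches lie between 156 and 57 bases before the start.

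Levels are given as UMI of the gene per 1000000 UMI of the class (CPM), and they are compared between classes for 1 gene at a time. Over all kept cells the 9 genes held from 980 UMI (Usp18) to 29115 UMI (Bst2), and the share of cells with a UMI was between 7.36% (Usp18) and 46.8% (Bst2).

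Irf7, the transcription factor that amplifies interferon production, was highest in Kupffer cells. Its level was 571 CPM in Kupffer cells (553 to 589) and 255 CPM in pDC (233 to 279), a ratio of 2.23 (2.03 to 2.46). Classical monocytes followed with 171 CPM, nonclassical monocytes with 122 CPM and neutrophils with 98.1 CPM. Each of these steps was wider than counting error, whereas neutrophils and cDC1 (86.4 CPM) were not separable. The step between nonclassical monocytes and neutrophils ended when the 1 nonclassical monocyte with the most Irf7 UMI was left out (1.19; 0.983 to 1.44). LSEC (50.2 CPM), NK cells and ILC1 (49.6 CPM) and T cells (42.8 CPM) formed a lower level at which neighbours did not differ beyond counting error. Kupffer cells held 41.2% of all Irf7 UMI, and pDC are known for a high resting level of IRF7.

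Isg15, a ubiquitin-like protein that is attached to other proteins, was highest in neutrophils. Its level was 505 CPM in neutrophils (480.1 to 532) and 433 CPM in basophils (334 to 551), and the interval of that ratio, 1.17 (0.911 to 1.52), included 1. The 31 basophils held 65 Isg15 UMI, of which 22 came from 1 cell. Without it basophils had 294 CPM (213 to 396), and neutrophils were 1.72 times as high (1.27 to 2.39). LSEC had 155 CPM (146 to 164), classical monocytes 124 CPM and Kupffer cells 95.6 CPM, and each of these steps exceeded counting error. B cells were lowest with 8.61 CPM (6.96 to 10.5), so the highest level was 58.7 times the lowest. Usp18, the protease that removes ISG15 from proteins and also dampens the receptor, had 29.3 CPM in LSEC (25.6 to 33.4) and 24.4 CPM in Kupffer cells (20.8 to 28.5), a ratio of 1.20 (0.975 to 1.48). Classical monocytes had 21.0 CPM and neutrophils 14.3 CPM. From LSEC down to B cells (5.31 CPM) no neighbours in the order of Usp18 were separable, although LSEC and B cells had intervals that did not overlap. Leaving out the 1 cell with the most Usp18 UMI among Kupffer cells or among neutrophils moved the ratio of LSEC to Kupffer cells to 1.24 (1.002 to 1.53) and that of classical monocytes to neutrophils to 1.59 (1.02 to 2.49).

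The 3 Ifit genes, which encode proteins that bind viral RNA, had different orders of classes. Ifit1 was highest in neutrophils, with 113 CPM (101 to 126) against 71.5 CPM in LSEC (65.6 to 77.7), a ratio of 1.58 (1.37 to 1.81). Ifit2 was highest in LSEC, with 120.4 CPM (113 to 128), against 67.2 CPM in Kupffer cells (61.1 to 73.8), a ratio of 1.79 (1.60 to 2.01). In neutrophils Ifit2 was low, with 15.3 CPM (11.1 to 20.4), and the interval overlapped that of T cells (18.8 CPM; 16.4 to 21.4). Of the 45 Ifit2 UMI of neutrophils 22 lay in 1 cell, and without it the level was 7.82 CPM (4.96 to 11.7), below the interval of T cells. The 21.3 CPM of cDC1 came from 16 UMI in 1 cell. Ifit3 did not separate neighbouring classes at the top, with 72.9 CPM in Kupffer cells (66.5 to 79.7), 64.5 CPM in LSEC (59.0 to 70.5) and 55.7 CPM in neutrophils (47.5 to 64.9). Kupffer cells and neutrophils, which are not neighbours, had intervals that did not overlap. The intervals of the ratios between neighbours, 1.13 (0.994 to 1.28) for Kupffer cells to LSEC and 1.16 (0.969 to 1.39) for LSEC to neutrophils, included 1. They no longer did when the cell with the most Ifit3 UMI was left out of the lower class, with 1.21 (1.06 to 1.38) and 1.36 (1.12 to 1.65). The next class, classical monocytes, had 29.6 CPM, and neutrophils were 1.88 times as high (1.41 to 2.55). The 58 plasma cells had no UMI of Ifit1, Ifit2 or Ifit3, and the exact interval reaches 3.19 CPM for each.

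Oasl2, an oligoadenylate synthetase-like protein, was highest in neutrophils, with 292 CPM (272 to 312), against 144 CPM in classical monocytes (128 to 160.4), a ratio of 2.03 (1.78 to 2.31). LSEC (128 CPM) were not separable from classical monocytes, and Kupffer cells followed with 90.9 CPM. Rsad2, also called viperin, is an enzyme that makes a nucleotide which stops viral polymerases. Its level was 279.7 CPM in neutrophils (260.9 to 299), 155 CPM in LSEC (146 to 164) and 124 CPM in Kupffer cells (115 to 132). The ratio of neutrophils to LSEC was 1.804 (1.65 to 1.97). The ratio of LSEC to Kupffer cells was 1.26 (1.15 to 1.37), but 173 of the 1187 Rsad2 UMI of LSEC lay in 1 cell. Without that cell LSEC had 133 CPM (125 to 141), the ratio was 1.07 (0.978 to 1.18) and the classes were not separable. T cells (9.86 CPM), NK cells and ILC1 (3.62 CPM) and B cells (3.57 CPM) were low for Rsad2.

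Bst2, or tetherin, holds budding virus at the cell surface and is also an antigen used to identify mouse pDC. Its level was 4099 CPM in pDC (4008 to 4191), 973 CPM in LSEC (951 to 996) and 451 CPM in Kupffer cells (435 to 467). The pDC were 4.21 times as high as LSEC (4.08 to 4.35). Neutrophils were the lowest class for Bst2, with 57.4 CPM (49.0 to 66.7), which is the reverse of their place for Isg15, Ifit1, Oasl2 and Rsad2.

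**Figure D2:**
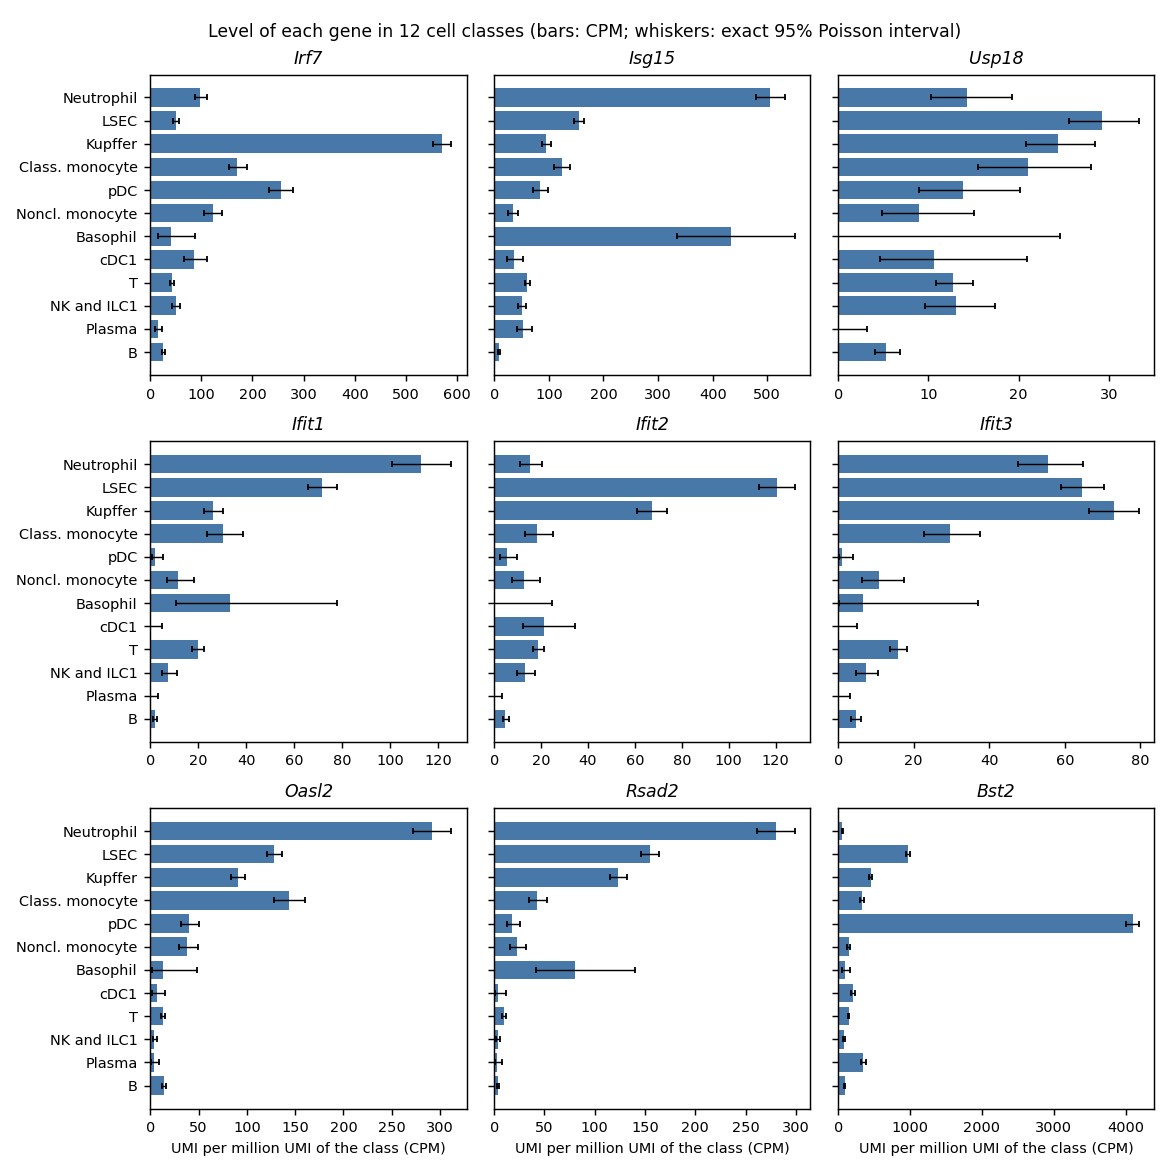
Level of each of the 9 genes (CPM, horizontal axis, from 0) in 12 cell classes, with neutrophils at the top and B cells at the bottom of each panel. Bars are CPM over all cells of a class and whiskers are exact 95% Poisson intervals, which cover counting error only. Neutrophils had the longest bars for Isg15, Ifit1, Oasl2 and Rsad2, LSEC for Usp18 and Ifit2, Kupffer cells for Irf7 and Ifit3, and pDC for Bst2.

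By class, 4 of the 9 genes were highest in neutrophils, where 5.85% of the 10895 genes with at least 200 UMI were highest. LSEC were highest for 2 of the 9, against 23.4% of all genes, Kupffer cells for 2, against 8.52%, and pDC for 1, against 9.05%. Of the 51 other interferon-stimulated genes with at least 200 UMI, 6 were highest in neutrophils, 14 in Kupffer cells, 12 in LSEC and 9 in classical monocytes, which were highest for 3.97% of all genes and for 0 of the 9. For summed levels, all other cells are the kept cells outside a class. They include the 786 cells with markers of 2 classes and the 425 with too few markers. The summed level of the 9 genes was 1430.2 CPM in neutrophils, against 904 CPM in all other cells, a ratio of 1.58 (1.53 to 1.63). It was 1748 CPM in LSEC, against 818 CPM in all other cells (2.14; 2.096 to 2.18), and 1522 CPM in Kupffer cells, against 861 CPM (1.77; 1.73 to 1.81). In pDC the sum was 4519 CPM, against 820.0 CPM in all other cells (5.51; 5.39 to 5.64), and Bst2 made up 90.7% of it. Without Bst2 the ratio of pDC fell below 1, to 0.880, and that of neutrophils was 3.17. Without Bst2 and Irf7 the ratios were 4.40 in neutrophils, 2.57 in LSEC, 1.59 in Kupffer cells and 0.485 in pDC. The sums that leave out Bst2, or Bst2 and Irf7, were chosen after the data were seen. T cells (0.322), NK cells and ILC1 (0.240) and B cells (0.148) had a lower summed level of the 9 genes than all other cells.

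The make-up of the sum differed between classes. In neutrophils Isg15 supplied 35.3% of the UMI of the 9 genes, Oasl2 20.4%, Rsad2 19.6%, Ifit1 7.88% and Irf7 6.86%. In Kupffer cells Irf7 supplied 37.5% and Bst2 29.6%, and Isg15 supplied 6.28%. In LSEC Bst2 supplied 55.7%, Isg15 8.88% and Rsad2 8.87%.

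Detection rises with depth, so each cell was thinned to 1000 UMI before shares of cells were compared. This left out 7 neutrophils, 20 LSEC and 54 Kupffer cells with fewer UMI, and 5 B cells. At that depth Isg15 was found in 29.7% of neutrophils, 12.6% of LSEC and 7.68% of Kupffer cells, against 0.671% of B cells, the class with the lowest share among those with over 100 cells. Oasl2 was found in 26.5% of neutrophils, 13.3% of classical monocytes and 10.99% of LSEC. Its share was 1.51% in B cells, 1.17% in T cells and 0.128% in NK cells and ILC1. Rsad2 was found in 16.5% of neutrophils and 11.3% of LSEC, against 0.436% of B cells and 0.256% of NK cells and ILC1. Irf7 was found in 46.5% of Kupffer cells, 18.9% of pDC and 8.93% of neutrophils, against 2.52% of B cells. Bst2 was found in 98.7% of pDC, 60.8% of LSEC and 36.7% of Kupffer cells, against 9.09% of B cells and 2.80% of neutrophils. Without thinning, Isg15 was found in 49.9% of neutrophils and 2.38% of B cells. The matrix holds cells alone, so free RNA could not be read from empty droplets, and its part in these shares was not tested.

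At 1000 UMI, 3 or more of the 9 genes were found together in 95 of 929 neutrophils (10.2%; 8.35 to 12.4%), 102 of 928 LSEC (10.99%; 9.05 to 13.2%) and 49 of 482 Kupffer cells (10.2%; 7.62 to 13.2%). The shares of these classes were not separable. They were 5.58% in pDC and 5.22% in classical monocytes, 1.22% in T cells (25 of 2056; 0.788 to 1.79%), 0.256% in NK cells and ILC1 and 0.168% in B cells (5 of 2980; 0.0545 to 0.391%). None of the 9 genes was found in 45.5% of neutrophils, 23.3% of LSEC, 23.7% of Kupffer cells, 74.3% of T cells and 85.8% of B cells. When the 7 genes other than Bst2 and Irf7 were counted, a set chosen after the data were seen, the classes separated. The share of cells with 3 or more was then 8.07% in neutrophils (6.40 to 10.0%), 4.31% in LSEC (3.10 to 5.82%) and 0.830% in Kupffer cells (0.227 to 2.11%), and these intervals did not overlap. Irf7 and Bst2 were the genes found in the most Kupffer cells. The 7 genes include Isg15, Ifit1, Oasl2 and Rsad2, which were highest in neutrophils, so the order of the classes depends on the choice. Without thinning, 3 or more of the 9 genes were found in 26.9% of neutrophils, 67.9% of LSEC and 78.9% of Kupffer cells, in the order of median depth.

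**Figure D3:**
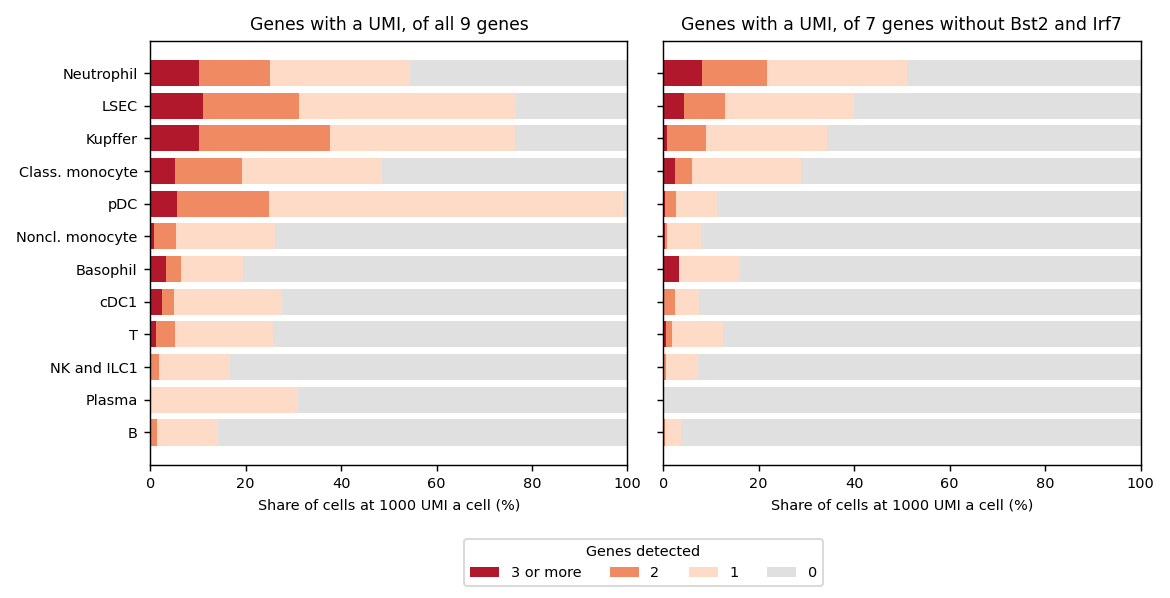
Share of cells (%, horizontal axis) by the number of genes with at least 1 UMI in each cell at 1000 UMI, for 12 classes. The left panel counts all 9 genes and the right panel the 7 genes other than Bst2 and Irf7, a set chosen after the data were seen. In the right panel the share with 3 or more was 8.07% in neutrophils, 4.31% in LSEC and 0.830% in Kupffer cells.

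Within neutrophils the transcripts were concentrated in some of the cells. The 252 neutrophils with 3 or more of the genes at full depth (26.9% of the class) held 95.6% of its 45 Ifit2 UMI, 93.9% of its 164 Ifit3 UMI and 91.3% of its 332 Ifit1 UMI. They held 77.1% of Rsad2, 70.2% of Irf7, 67.7% of Isg15 and 54.1% of Oasl2. A gene's own UMI help to place a cell in that group, so these shares are a description. Single cells carried many copies of some genes. The highest count in 1 neutrophil was 112 UMI of Rsad2 out of 824 in the class, 43 of Ifit1 and 22 of the 45 UMI of Ifit2. Among T cells, the 236 cells with 3 or more (11.5%) held 81.2% of Ifit1, 80.7% of Rsad2 and 76.6% of Ifit3, but 29.3% of Bst2.

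Detection of pairs of genes in the same cell was compared at 1000 UMI, for genes found in at least 10 cells of a class. The share of cells with 1 gene was taken among cells with another gene, over the share among cells without it. In neutrophils 11 of 28 pairs reached a ratio of 2 in both orders, in T cells 30 of 36, in LSEC 11 of 36 and in Kupffer cells 4 of 28. The median ratio was 1.94 in neutrophils, 4.03 in T cells, 1.56 in LSEC and 1.11 in Kupffer cells. Only cells of 1 class were compared, and differences in capture between cells of equal UMI remain part of these ratios. The share of all gene pairs that reach a ratio of 2 in a class was not computed. The counts and medians therefore describe each class and do not rank the classes.

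Ifit1 and Ifit3 gave the highest ratio in neutrophils. Ifit3 was found in 19 of 65 neutrophils with Ifit1 (29.2%; 18.6 to 41.8%), against 17 of 864 without Ifit1 (1.97%; 1.15 to 3.13%). Isg15 was found in 76.9% of neutrophils with Ifit1 (64.8 to 86.5%), against 26.2% of those without it (23.3 to 29.2%). Rsad2 was found in 52.3% of neutrophils with Ifit1 (39.5 to 64.9%), against 13.8% of those without it (11.5 to 16.3%). In these 3 pairs the intervals did not overlap. Bst2 did not follow Ifit1, with 2 of 65 neutrophils with Ifit1 (3.08%) against 24 of 864 without it (2.78%). Isg15 and Oasl2, the genes found in the most neutrophils, were less tightly paired. Oasl2 was found in 38.8% of neutrophils with Isg15 (33.0 to 44.8%), against 21.3% of those without it (18.2 to 24.6%).

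In T cells, where few cells had any of the genes, Rsad2 was found in 7 of 30 cells with Ifit3 (23.3%; 9.93 to 42.3%), against 21 of 2026 without it (1.04%; 0.643 to 1.58%). In LSEC, Ifit3 was found in 11 of 59 cells with Ifit1 (18.6%; 9.69 to 30.9%), against 36 of 869 without it (4.14%; 2.92 to 5.69%). Usp18 was found in 10 of 105 LSEC with Rsad2 (9.52%; 4.66 to 16.8%), against 16 of 823 without it (1.94%; 1.12 to 3.14%). Ifit3 and Rsad2, which went together in neutrophils and T cells, did not in LSEC, where Rsad2 was found in 10.6% of cells with Ifit3 (3.55 to 23.1%), against 11.4% of cells without it (9.33 to 13.6%). Irf7 was found in more Kupffer cells than any other of the genes, and its presence made little difference to Isg15, found in 8.04% of Kupffer cells with Irf7 (4.83 to 12.4%), against 7.36% of those without it (4.49 to 11.3%).

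**Figure D4:**
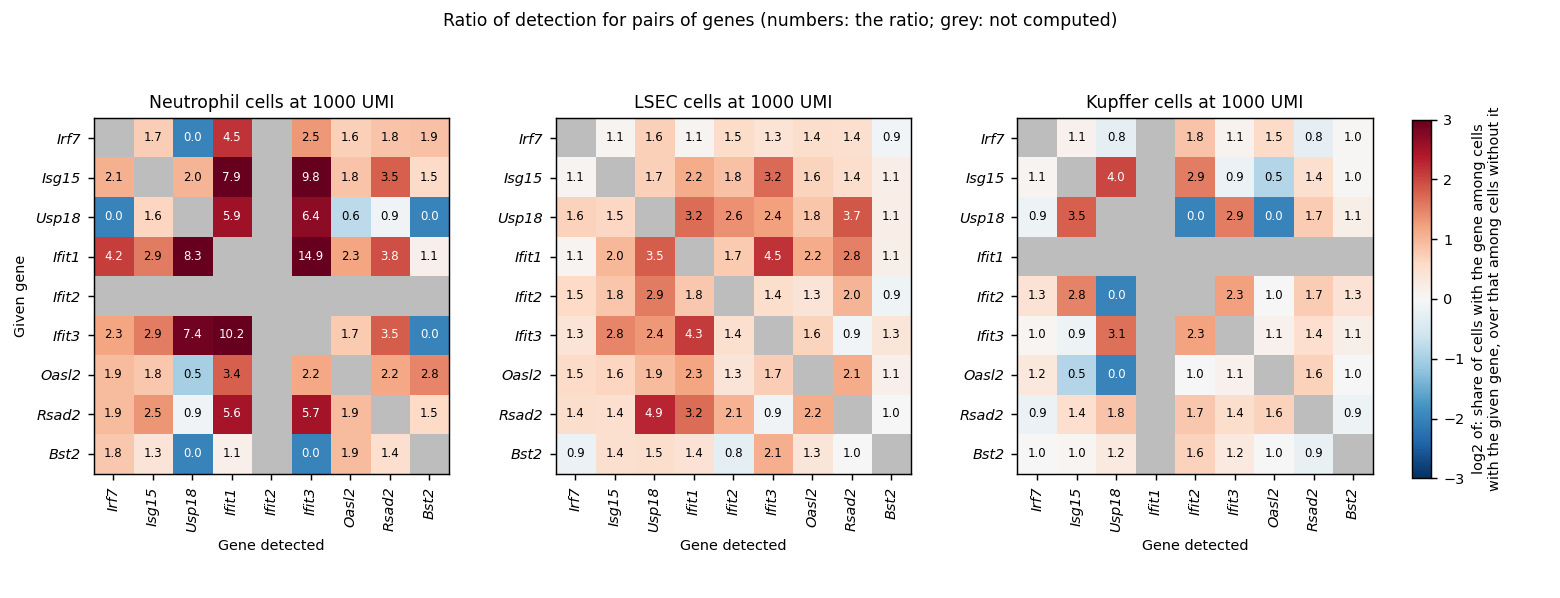
Ratio of detection for pairs of the 9 genes in neutrophils, LSEC and Kupffer cells at 1000 UMI. Each square gives the share of cells with the column gene among cells with the row gene, over that share among cells without the row gene, and the colour is its log2; grey squares were not computed. In neutrophils the highest ratios were 14.9 for Ifit3 given Ifit1 and 10.2 for Ifit1 given Ifit3, and in LSEC the highest was 4.90 for Usp18 given Rsad2.

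Cells with 3 or more of the 9 genes were then compared with cells of the same class with none, for genes that did not enter the choice of cells. Cells were split on all of their UMI and again after thinning to 1000 UMI, and levels always used all UMI. A gene was measured if at least 5 UMI would be expected in the group with fewer UMI at equal levels. A gene low in the cells with none could pass through its UMI in the cells with 3 or more, so counts and medians over measured genes are descriptions. Counts are therefore also given for the genes that would reach 5 UMI at their level in the cells with none, a limit chosen after seeing the data. A fold of 2 was the threshold, a group with under 3 UMI was set to 3, and some genes stand on more than 1 list and are counted under each.

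Other genes of the interferon response were higher in neutrophils with 3 or more of the 9 genes under both splits. The split on all UMI gave 252 neutrophils with 3 or more (median 2718 UMI) and 205 with none (median 2523 UMI). In that split 37 of 49 measured other interferon-stimulated genes were at least 2-fold higher and none at least 2-fold lower, with a median fold of 2.75, where 18.0% of all 6093 genes measured were higher and 1.74% lower. With genes measured by their level in the cells with none, 26 of 38 were at least 2-fold higher and none at least 2-fold lower, against 9.60% and 1.96% of 5408 genes. All 8 measured interferon-inducible GTPases were at least 2-fold higher, and 5 of 5 by that limit. Some markers of other classes were also higher there, with all 5 measured T cell markers, 4 of 6 B cell markers and all 4 measured pDC markers past the threshold. They summed to 129.6 CPM in neutrophils with 3 or more, against 40.6 CPM in those with none, for T cells, and to 256 CPM, against 108 CPM, for B cells. Other lists did not move that way. Of 5 measured Kupffer markers none was at least 2-fold higher and 1 was lower, with a sum of 92.4 CPM in neutrophils with 3 or more, against 121.9 CPM in those with none. Classical monocyte markers had 3 higher and 1 lower of 4 and summed to 382 CPM, against 629 CPM, and nonclassical monocyte markers had 3 higher of 5 and summed to 127 CPM, against 72.4 CPM. Of the neutrophil markers themselves none was higher, and they summed to 135109 CPM, against 196858 CPM. Their part in the result of that split was not tested.

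After thinning to 1000 UMI, 95 neutrophils had 3 or more (median 2529 UMI before thinning) and 423 had none (median 2640.0 UMI). Of 39 measured other interferon-stimulated genes (52 in the file), 31 were at least 2-fold higher and 2 were at least 2-fold lower, with a median fold of 3.84. Over all 4000 genes measured, 3.62% were at least 2-fold higher and 11.4% at least 2-fold lower, with a median fold of 0.976. With genes measured by their level in the cells with none, 23 of 31 were at least 2-fold higher and 2 lower, against 2.77% and 11.6% of 3928 genes. Slfn5, a Schlafen family protein, had 1061 CPM in neutrophils with 3 or more, against 77.1 CPM in those with none (13.8-fold; 10.98 to 17.4). Ifi204, a nuclear DNA sensor of the PYHIN family, had 669.8 CPM in neutrophils with 3 or more, against 47.7 CPM in those with none (14.1-fold; 10.5 to 18.9).  The RNA sensors Ddx58 (RIG-I) and Ifih1 (MDA5) were 6.07-fold and 5.91-fold higher. Herc6, with 29 UMI in neutrophils with 3 or more and 8 UMI in those with none, and Ifit3b, with 62 and 3 UMI in the same groups, passed only through the cells with 3 or more, as did 6 further genes of the list. Ifit3b may also take reads of Ifit3, which entered the choice. Mndal (0.488-fold; 0.153 to 1.20) and Ifi203 (0.411-fold; 0.0815 to 1.29) were the genes of the list under the threshold, from 5 and 3 UMI in the cells with 3 or more, and their intervals included 1. Under the split on all UMI Mndal was 3.39-fold higher (1.77 to 7.14) and Ifi203 6.71-fold higher (2.93 to 18.9), so the direction of both in neutrophils turned with the split.

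The interferon-inducible GTPases, which attack the membranes around intracellular microbes, were higher in all 6 measured members of 12, of which 3 passed through the cells with 3 or more (Ifi47, Igtp and Gbp9). Gbp2 had 412 CPM in neutrophils with 3 or more, against 20.3 CPM in those with none (20.3-fold; 13.3 to 31.7). Irgm1 was 8.25-fold higher (5.32 to 12.9). Of the signalling genes, Irf9 was 2.63-fold higher (1.79 to 3.82). Cd274, the ligand PD-L1, was 3.60-fold higher (2.52 to 5.10). Stat2 and Socs1, which inhibits the receptor's kinases, also passed only through the cells with 3 or more, with 14 and 22 UMI there. Cxcl10, a chemokine induced by interferons, had 520.5 CPM in neutrophils with 3 or more, against 14.02 CPM in those with none. It was on none of the lists and is named after its values were seen, and with 20 UMI in the cells with none it too passed through the cells with 3 or more.

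Genes of immature neutrophils were lower in the same cells. At 1000 UMI all 6 genes of that list were at least 2-fold lower in neutrophils with 3 or more, and under the split on all UMI 4 of 6 were. Ngp, a granule protein made before neutrophils leave the bone marrow, had 40.3 CPM in neutrophils with 3 or more, against 6614 CPM in those with none. Camp, the cathelicidin of the same granules, had 0 UMI in neutrophils with 3 or more, against 7336 UMI (5141 CPM) in those with none. Lcn2 had 1118 CPM in neutrophils with 3 or more, against 4235 CPM in those with none (0.264-fold; 0.233 to 0.298). None of 6 genes of mature neutrophils, such as Cxcr2, Il1b and Cxcl2, reached the threshold in either direction, and their median fold was 1.57. Ngp, Lcn2, Csf3r and Cxcr2 were also among the markers that placed cells in the class. The 8 neutrophil markers summed to 116199.5 CPM in neutrophils with 3 or more, against 191914 CPM in those with none. Markers of B cells summed to 48.4 CPM in neutrophils with 3 or more, against 217 CPM in those with none, and those of T cells to 80.7 CPM, against 66.6 CPM. Markers of classical monocytes, Chil3 among them, summed to 0 CPM in neutrophils with 3 or more, against 641 CPM in those with none, those of NK cells and ILC1 to 32.3 CPM, against 201 CPM, and those of pDC to 4.03 CPM, against 68.7 CPM. Kupffer markers summed to 129 CPM in neutrophils with 3 or more, against 109.3 CPM in those with none, and haemoglobin genes to 16.1 CPM, against 452 CPM. The part of these differences in the result was not tested.

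The genes of immature neutrophils also divided the class directly. Neutrophils with 2 or 3 of Ngp, Camp and Ltf (68 cells, median 6538.5 UMI) had 81.2 CPM of Isg15 (57.7 to 111), against 618 CPM (585 to 652) in the 791 neutrophils with none of them (median 2499 UMI). Their Ifit1 level was 4.16 CPM (0.504 to 15.04), against 136 CPM (121 to 152). Oasl2 had 99.9 CPM (73.7 to 132), against 339 CPM (315 to 364), and Rsad2 54.1 CPM (35.4 to 79.3), against 333 CPM (309 to 358). At 1000 UMI, 0 of the 68 had 3 or more of the 9 genes, which allows up to 5.28%, against 88 of 784 (11.2%; 9.10 to 13.6%) of those with none of Ngp, Camp and Ltf. The 77 neutrophils with 1 of the granule genes lay between for Isg15, with 350.0 CPM (283 to 427), and had 117 CPM of Ifit1. Isg15, Ifit1, Oasl2 and Rsad2 were thus lower in the neutrophils with 2 or 3 granule transcripts than in those with none, with intervals that did not overlap.

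In T cells split on all UMI, 34 of 48 measured other interferon-stimulated genes were at least 2-fold higher in 236 cells with 3 or more (median 6084.5 UMI) than in 614 cells with none (median 4491 UMI). The background was 5.29% of 9690 genes higher and 2.30% lower in that split, and all 5 measured proliferation genes were higher. With genes measured by their level in the cells with none, 31 of 45 were higher and none lower, against 3.51% and 2.36% of 9438 genes. Split at 2 genes in place of 3, 11 were at least 2-fold higher. Among the genes with the highest fold, named after their values were seen, were Cxcl9, with 26.1 CPM in T cells with 3 or more, against 1.02 CPM in those with none, Aif1, a macrophage gene, with 32.0 CPM, against 2.71 CPM, and Cxcl2, with 229 CPM, against 20.005 CPM. Of 5 measured Kupffer markers 2 were at least 2-fold higher, and the list summed to 128.8 CPM in T cells with 3 or more, against 81.0 CPM in those with none. Neutrophil markers had 1 higher of 5 and summed to 129 CPM, against 109.5 CPM, classical monocyte markers had 0 of 2 and summed to 210.05 CPM, against 160.4 CPM, and NK and ILC1 markers had 0 of 4 and summed to 1437 CPM, against 2179 CPM. Their part in the result of that split was not tested. After thinning to 1000 UMI, 25 T cells had 3 or more of the genes and 1528 had none. Of 22 measured other interferon-stimulated genes, 19 were at least 2-fold higher and none at least 2-fold lower, with a median fold of 4.11, where 2.92% of all 3631 genes measured were higher and 8.01% lower. With genes measured by their level in the cells with none, 18 of 21 were higher and none lower, against 2.81% and 8.03% of 3626 genes. Zbp1, a sensor of viral nucleic acid, had 381 CPM in T cells with 3 or more, against 54.7 CPM in those with none (6.97-fold; 5.08 to 9.36). Trim30a was 6.10-fold higher (4.74 to 7.76) and Ifi203 4.17-fold higher (3.59 to 4.82). All 6 measured GTPases were at least 2-fold higher, among them Gbp4 (5.43-fold) and Igtp (4.86-fold). All 3 measured proliferation genes were at least 2-fold lower, with a summed level of 7.77 CPM in T cells with 3 or more, against 412 CPM in those with none. The direction of the proliferation genes thus turned with the split. NK and ILC1 markers summed to 288 CPM in T cells with 3 or more, against 1797 CPM in those with none, and their part in the result was not tested.

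LSEC and Kupffer cells were split at 1000 UMI only, because too few had none of the genes at full depth. With genes measured by their level in the cells with none, the median fold of the other interferon-stimulated genes was 1.87 in LSEC and 3.06 in neutrophils at 1000 UMI, a difference that was not tested. Among 45 measured other interferon-stimulated genes, 16 were at least 2-fold higher and 1 at least 2-fold lower (Epsti1, 0.339-fold), with a median fold of 1.87, in 102 cells with 3 or more against 216 with none. The background was 1.56% of 9356 genes higher and 5.66% lower, and 0.986% and 5.74% of the 9233 genes measured by their level in the cells with none, by which the counts of the list did not change. Split at 2 genes in place of 3, 7 were at least 2-fold higher. Cmpk2, a nucleotide kinase encoded beside Rsad2, had 177 CPM in LSEC with 3 or more, against 38.3 CPM in those with none (4.62-fold; 3.44 to 6.25). Oasl1 was 4.98-fold higher (2.68 to 9.63) and Ifi44 2.60-fold higher (2.17 to 3.13). Of 11 measured GTPases, 6 were at least 2-fold higher, among them Iigp1, with 944 CPM in LSEC with 3 or more, against 463 CPM in those with none (2.04-fold; 1.84 to 2.25). Cxcl9, a chemokine induced mainly by interferon gamma, had 537 CPM in LSEC with 3 or more, against 251 CPM in those with none (2.14-fold; 1.87 to 2.45). Neutrophil markers summed to 65.7 CPM in LSEC with 3 or more, against 340.0 CPM in those with none, NK and ILC1 markers to 15.2 CPM, against 174 CPM, and Kupffer markers to 420.4 CPM, against 363 CPM. Haemoglobin genes, named after their values were seen, were also among the highest folds, with 572 CPM of Hbb-bs in LSEC with 3 or more, against 6.66 CPM in those with none. Of the 747 haemoglobin UMI in LSEC with 3 or more, 742 lay in 1 cell. Their part in the result was not tested.

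In Kupffer cells few other interferon-stimulated genes passed the threshold. Of 49 measured other interferon-stimulated genes, 3 were at least 2-fold higher in the 49 Kupffer cells with 3 or more than in the 114 with none, and 0 at least 2-fold lower, with a median fold of 1.32, where 1.57% of 8212 genes were higher and 4.58% lower. By their level in the cells with none the counts of the list were the same, against 0.856% and 4.66% of 8063 genes. They were Ifit3b (3.09-fold; 1.55 to 6.29), Cmpk2 (2.82-fold; 1.77 to 4.54) and Slfn8 (2.02-fold; 1.37 to 2.97). Of 11 measured GTPases 1 reached the threshold, Tgtp2, with 13 UMI in the cells with 3 or more and 11 UMI in those with none, and it passed only through the cells with 3 or more. Neutrophil markers summed to 574 CPM in Kupffer cells with 3 or more, against 147 CPM in those with none, and their part in the result was not tested. At 1000 UMI Bst2 was found in 60.8% of LSEC, and Irf7 in 46.5% and Bst2 in 36.7% of Kupffer cells. Cells were not split on the other 7 genes alone, and the part of Bst2 and Irf7 in these results was not tested.

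**Figure D5:**
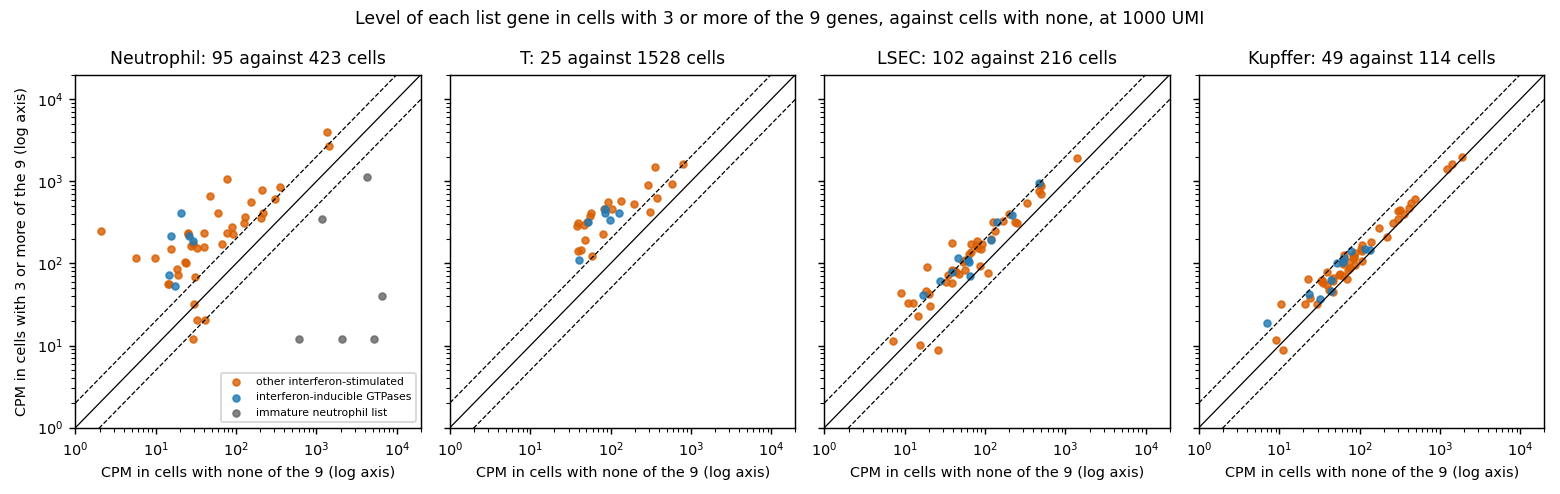
Level of genes outside the 9 in cells with 3 or more of the 9 genes (CPM, vertical axis, log scale) against cells with none (CPM, horizontal axis, log scale), at 1000 UMI, for neutrophils, T cells, LSEC and Kupffer cells. Each point is 1 measured gene; the solid line marks equal levels, the dashed lines a 2-fold difference, and groups with under 3 UMI are drawn at 3 UMI. In neutrophils 31 of 39 other interferon-stimulated genes lie above the upper dashed line. All 6 genes of the immature list lie below the lower one. In Kupffer cells 3 of 49 other interferon-stimulated genes lie above. Depth before thinning differed between the classes, and its part in this difference was not tested.

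The genes most alike in pattern to the 9 were sought by Pearson correlation over single cells with the summed, log-transformed level of the 9, among genes found in at least 5% of the cells of a class. Cells of 1 class share the library and differ in depth, so these values are descriptions. In neutrophils (936 cells, 4200 genes) the 10 highest were Slfn5 (0.43), Ifi204 (0.34), Trim30a (0.31), Oasl1, Rtp4 and Ifi27l2a (0.30 each), Zbp1 (0.29), and Dtx3l, Slfn8 and Oas3 (0.27 each). All 10 were on the list of other interferon-stimulated genes, which holds 52 of the 31053 genes in the matrix. How many of the genes compared in a class are on that list was not counted. The list was chosen with earlier results of these data known. In T cells Zbp1, Ly6a and Rtp4 led (0.23 each), and in LSEC Ifitm3 (0.32), Ly6a (0.29) and Ifi44 (0.28). In Kupffer cells 2 of the 10 highest, Oas3 (0.28) and Ifi203 (0.25), were on the list, and Lst1 (0.28) and Csf1r, the receptor for a macrophage growth factor (0.25), stood beside them.

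Of the ligands, few transcripts were found. Over all kept cells Ifnb1 had 4 UMI, Ifnk 5 UMI, and Ifna13, Ifnz and Ifnl2 1 UMI each, and the other 15 type I and type III interferon genes of the list had 0 UMI, including 12 of the 13 Ifna genes. At 64321006 UMI in all, this depth does not show whether rare cells make them. Ifng, the type II interferon, had 2857 UMI, with 155 CPM in NK cells and ILC1 and 150.4 CPM in T cells, against 1.70 CPM in neutrophils.

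The receptor and its signalling chain (Jak1, Tyk2, Stat2 and Irf9 among them) had UMI in all 12 ranked classes. Ifnar1 was highest in pDC (292 CPM), with 41.1 CPM in neutrophils. Ifnar2 had 287 CPM in pDC, 221 CPM in Kupffer cells, 139 CPM in LSEC and 84.9 CPM in neutrophils, against 27.1 CPM in B cells. Among classes of over 100 cells, neutrophils, which had the highest Isg15, were lowest for Ifnar1, and B cells were lowest for Ifnar2. Ifnlr1, the receptor chain for type III interferons, had 15 UMI in neutrophils (5.09 CPM) and 2 UMI in B cells (0.183 CPM), and 0 in the other ranked classes. Stat2 was highest in pDC (129 CPM), with 21.7 CPM in neutrophils, and Irf9 in LSEC (111 CPM), with 89.6 CPM in neutrophils. The enzymes that attach ISG15 were not highest where Isg15 was. Uba7, the activating enzyme, had 46.5 CPM in LSEC and 20.03 CPM in neutrophils, Ube2l6, the conjugating enzyme, 49.9 CPM in Kupffer cells and 9.51 CPM in neutrophils, and Herc6, the ligase in mice, 78.1 CPM in LSEC and 24.1 CPM in neutrophils. Socs3, a negative regulator, was highest in classical monocytes (480.5 CPM), and Trex1 had no UMI in any kept cell. Overlaps of Trex1 with other genes were not searched, so this does not show that Trex1 is not transcribed.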

How the data were processed

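The deposited files are gene by barcode matrices of UMI counts, which the authors made for each of the 2 samples. The mm10 assembly and the tools STAR, Seurat 2.3.4 and Cell Ranger 2.1.1 are named, with no role given, per the submitters' processing notes. A software version of 3.0.0 stands in the matrix, per the file headers. The rest was computed here from those counts. Barcodes needed 500 UMI, 200 genes and no more than 10% mitochondrial UMI, which left 10366 of 11192. Identical files made both samples 1 sample with no test, and grouping by genotype was not possible. A cell joined a class with at least 3 of its markers detected and a lead of 2 markers over the next class. There were 85 markers of 13 classes. Cells with markers of 2 classes were left out of the classes, in place of a doublet caller. Like the cells with too few markers, they stayed among all other cells in the ratios of summed levels. CPM was computed over all UMI of a class. Intervals are exact Poisson (levels), Clopper-Pearson (shares) and conditional binomial (ratios) at 95%. Depth limits detection, so cells were thinned to 1000 UMI for shares (seed 1). No gene was tested for differences between samples. Genes named are the 9 members, genes of the fixed lists, the 10 genes most alike in pattern and, chosen after their values were seen, Cxcl10, Cxcl9, Aif1, Cxcl2 and Hbb-bs. The members and lists were chosen with earlier results of these data known, and the settings of the class gate, the cell subsets and the use of 1000 UMI for the LSEC and Kupffer splits were set after the data were seen. Alternatives were a 5% mitochondrial limit, higher minima, Scrublet, a stricter gate, Leiden clusters, another CPM total, other depths and another split, and, chosen after the data were seen, sums without Bst2 and Irf7, another limit for measured genes and levels without 1 cell. Software was Python 3.11.15, numpy 2.4.6, scipy 1.17.1, pandas 2.3.3, scanpy 1.11.5, igraph 0.11.9 and matplotlib 3.10.9. Some genes of the lists are not reported here by name.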

Additional observations from a re-analysis of the deposited data

How the results depend on the processing

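No paired analysis was possible because the deposited matrices of the 2 samples were identical and no result comes from a test. The summed CPM over that of all other cells (1.58 in neutrophils, 1.77 in Kupffer cells, 2.14 in LSEC and 5.51 in pDC) stayed above 1 in every class under the filters, gates and totals tried. With at most 5% mitochondrial UMI it was 1.98 in neutrophils, 1.88 in Kupffer cells, 2.71 in LSEC and 6.11 in pDC. With CPM over UMI without haemoglobin, hepatocyte, mitochondrial and ribosomal protein genes it was 1.30 in neutrophils, 1.62 in Kupffer cells and 1.93 in LSEC. Without Scrublet doublets it was 1.66 in neutrophils and 2.20 in LSEC, and with 1 more marker 1.47 in neutrophils. Further alternatives were chosen after seeing the data. Without Bst2 it was 3.17 in neutrophils, 2.62 in Kupffer cells, 1.78 in LSEC and 0.880 in pDC, and without Bst2 and Irf7 it was 4.40 in neutrophils, 1.59 in Kupffer cells, 2.57 in LSEC and 0.485 in pDC, so the direction in pDC turned; Bst2 made up 90.7% of the sum there. The share of cells with 3 or more genes rose with depth by construction. At 2000 UMI it was 19.4% in neutrophils, 32.0% in Kupffer cells and 27.3% in LSEC, and without thinning 26.9% in neutrophils, 78.9% in Kupffer cells and 67.9% in LSEC. Of the 7 genes other than Bst2 and Irf7 (also chosen after seeing the data) it was 8.07% in neutrophils, 0.830% in Kupffer cells and 4.31% in LSEC. Of all 9 genes, with at most 5% mitochondrial UMI, it was 7.34% in Kupffer cells, against 10.2% otherwise. The pairs past 2-fold in LSEC numbered 7 at 2000 UMI, against 11 at 1000 UMI. They also fell in T cells, to 20 from 30, and in neutrophils, to 8 from 11, both within the limit set. Split at 2 genes, 11 other interferon-stimulated genes were at least 2-fold higher in T cells (34 at 3 genes) and 7 in LSEC (16 at 3 genes), and split on 1000 UMI 19 in T cells, where fewer genes were measured. The cause of the other changes was not tested. Of 97 values under an alternative, 65 did not move beyond the limit set for them. Without the cell with the most UMI of a gene, in 1 of 2 neighbouring classes at a time, 4 of 174 comparisons of neighbours no longer exceeded counting error and 14 newly did. With 1 sample, spread between mice is not covered.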

Other observations

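T cells with transcripts of Cd4 and none of Cd8a or Cd8b1 (425 cells, median 5071 UMI) had 74.8 CPM of Isg15 (64.4 to 86.5), against 39.4 CPM (34.7 to 44.6) in T cells with Cd8a or Cd8b1 and no Cd4 (1016 cells, median 5324 UMI). Ifit3 had the opposite order, with 8.998 CPM in the Cd4 cells (5.64 to 13.6), against 17.4 CPM in the Cd8 cells (14.3 to 21.0). Without the 1 cell with the most Ifit3 UMI in each subset (2 and 17 UMI), the order held but the intervals overlapped. The levels were then 8.19 CPM in the Cd4 cells (5.004 to 12.7), against 14.7 CPM in the Cd8 cells (11.9 to 18.04). At 1000 UMI, 3 or more of the 9 genes were found in 4 of 425 Cd4 cells (0.941%) and 8 of 1016 Cd8 cells (0.787%), with intervals that overlap. Among LSEC, Rsad2 without the 1 cell with the most of its UMI in each subset (173 and 37 UMI) had 141 CPM (126 to 158) in the 262 cells with at most 5% mitochondrial UMI, against 123 CPM (114 to 132) in those with more, with intervals that overlap, whereas with these cells it had 219 CPM (199.96 to 239.5), against 129 CPM (119.9 to 139). Among Kupffer cells, Irf7 had 574 CPM in the 399 cells with at least 5000 UMI (556 to 593), against 481 CPM (397 to 578) in the 137 cells with fewer, with intervals that overlap. These subsets were chosen after seeing the data, and no test was made.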
